A study of Mus musculus with 6 samples.

Results

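The genes described here are 8 genes by which hepatocytes take up and use glucose and fructose, together with the transcription factor ChREBP that senses the sugar load and its strongly glucose-responsive target Txnip. They were picked by name for these roles, and they are 8 of the 25184 genes in the count table. They are the sugar transporter gene Slc2a2, the fructose genes Khk and Tkfc, the glycolytic genes Gckr, Pfkfb1 and Pklr, the ChREBP gene Mlxipl, and Txnip. All 8 passed the filter on low counts.

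Messenger RNA of primary mouse hepatocytes was measured by stranded paired-end sequencing, with 6 libraries from 6 mice. The 3 control libraries came from Sucnr1 fl/fl mice, in which both copies of the succinate receptor gene Sucnr1 carry loxP sites around exon 2 and no Cre is present. The 3 Hep-Sucnr1 KO libraries came from mice with the same floxed alleles and 1 copy of an Alb-Cre transgene, whose Cre is driven by the albumin promoter and thus deletes Sucnr1 in hepatocytes. Mice of both genotypes were chow fed, and all hepatocytes were kept overnight on collagen in attachment medium before RNA extraction. By the study's methods this medium was rich in glucose and also held pyruvate, glutamine and fetal bovine serum. Every value below is thus of cells cultured at high glucose, and no library came from cells at another glucose level. RNA was extracted on day 1 from 1 mouse of each genotype and on day 2 from 2 mice of each genotype. The age and the sex of these mice are not given in the sources used here. The libraries are named by the replicate numbers of the labels, which are 1, 2 and 3 for Sucnr1 fl/fl and 3, 4 and 5 for Hep-Sucnr1 KO.

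GLUT2, the protein of Slc2a2, lets glucose and fructose cross the hepatocyte membrane in both directions. The protein of Gckr is a nuclear regulator of the first step of glucose use that responds to fructose phosphates, whereas fructose itself enters through ketohexokinase and bypasses the control at phosphofructokinase. ChREBP, activated by sugar phosphates, binds carbohydrate response elements as a dimer with MLX and raises the transcription of genes such as Pklr and Txnip.

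Library totals ranged from 30504248 to 38770694 counts. Values are given as CPM, counts scaled to a common library total, with trimmed mean of M values (TMM) factors. The targeted gene itself was at 6.71, 3.55 and 3.40 CPM in the controls (replicates 1, 2 and 3) and at 2.66, 0.827 and 0.152 CPM in Hep-Sucnr1 KO replicates 3, 4 and 5, so the genotypes did not overlap, although Hep-Sucnr1 KO replicate 3 kept a level near those of 2 controls. Its log2 fold change was −2.23 ± 0.54 (SE), with an adjusted p of 0.998 by edgeR and 0.0328 by DESeq2. The summed CPM of 10 hepatocyte identity genes lay between 70030 and 103900, against at most 163 for Kupffer cell and macrophage genes, 118 for sinusoidal endothelial genes, 23.2 for stellate cell genes, 657 for cholangiocyte genes, 7.29 for neutrophil genes and 145 for erythroid genes, and the genotypes overlapped for each of these lists. Hep-Sucnr1 KO replicate 4 had the highest sum of pericentral landmark genes (5310 CPM, against 1301 to 3074 in the other 5 libraries) and the lowest sums of hepatocyte identity, periportal (3842 CPM against 3918 to 6156) and culture genes (7242 CPM against 9272 to 11510). Its identity sum was mostly Alb, at 37110 CPM against 46940 to 68900 in the others. Of the other identity genes, Ttr (3304 CPM) and Apoa1 (4437) were also lowest there. Hnf4a (313 CPM) and Cyp2e1 (3430, also a pericentral landmark) were highest there, so the low sum does not hold for each identity gene. In such bulk libraries a smaller share of a cell type and less RNA per cell cannot be told apart.

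Slc2a2 (ENSMUSG00000027690, GRCm38 chr3:28697903-28731359, plus strand) had 164, 99.6 and 108 CPM in the controls (replicates 1, 2 and 3) and 86.2, 87.8 and 109 CPM in Hep-Sucnr1 KO replicates 3, 4 and 5. Sucnr1 fl/fl replicate 1 stood above the other 5 libraries, which lay close together, and the genotypes overlapped. The log2 fold change between the genotypes, negative where Hep-Sucnr1 KO is lower, was −0.36 ± 0.20 (SE, 95% interval −0.83 to 0.12, n = 3 per genotype, edgeR adjusted p = 0.998), and without Sucnr1 fl/fl replicate 1 it was −0.08. The transporter of most other cell types, GLUT1, was transcribed at a higher level in these cultures: per kilobase of exon, Slc2a1 was at 176 CPM and Slc2a2 at 19.0 CPM on average over the 6 libraries. The ratio of Slc2a1 to Slc2a2 per kilobase ranged from 6.25 in Sucnr1 fl/fl replicate 2 to 14.6 in Hep-Sucnr1 KO replicate 3, so Slc2a1 was higher in every library.

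Khk (ENSMUSG00000029162, chr5:30921431-30931248, plus strand) encodes ketohexokinase, which makes fructose 1-phosphate. It was at 328, 194 and 286 CPM in the Sucnr1 fl/fl libraries and at 295, 293 and 312 CPM in the Hep-Sucnr1 KO libraries, in the order of replicates used above. The Hep-Sucnr1 KO libraries were nearly equal and fell inside the range of the controls, which was wide because of Sucnr1 fl/fl replicate 2. The log2 fold change was 0.17 ± 0.19 (95% interval −0.28 to 0.62).

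Tkfc (ENSMUSG00000034371, chr19:10587791-10605654, minus strand) encodes the triokinase that phosphorylates the glyceraldehyde formed from fructose 1-phosphate. Its levels were 289, 262 and 213 CPM in Sucnr1 fl/fl and 219, 231 and 310 CPM in Hep-Sucnr1 KO. The genotype means were almost the same, 254.8 ± 38.5 (SD) and 253.0 ± 49.5 CPM, with a log2 fold change of −0.01 ± 0.19 (95% interval −0.47 to 0.44). On the opposite strand Ddb1 and Cyb561a3 share exon sequence with Tkfc and had up to 6050 and 501 counts, but the counting used strand. The log2 CPM of Khk and Tkfc, which act in the same pathway, had a Pearson r of 0.10 over the 6 libraries. In Sucnr1 fl/fl replicate 2 Khk was at its lowest, while Tkfc was above its level in 3 other libraries. Apart from that library, both genes were lowest in Sucnr1 fl/fl replicate 3. Both were highest in Sucnr1 fl/fl replicate 1 and Hep-Sucnr1 KO replicate 5.

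Gckr (ENSMUSG00000059434, chr5:31297443-31327314, plus strand), the gene of that nuclear regulator, was at 75.2, 56.8 and 70.3 CPM in Sucnr1 fl/fl and at 65.0, 64.6 and 84.9 CPM in Hep-Sucnr1 KO. All but Hep-Sucnr1 KO replicate 5 fell between the lowest and the highest control, and the log2 fold change was 0.09 ± 0.17 (95% interval −0.31 to 0.48).

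Pfkfb1 (ENSMUSG00000025271, chrX:150588229-150643878, plus strand) encodes the liver form of the bifunctional enzyme that makes and degrades fructose 2,6-bisphosphate, the activator of phosphofructokinase. It was by far the least abundant of the 8, with 3.41, 1.89 and 2.01 CPM in Sucnr1 fl/fl and 2.63, 4.58 and 2.73 CPM in Hep-Sucnr1 KO. These levels rest on 61 to 155 counts a library. The highest library was Hep-Sucnr1 KO replicate 4 and the next was Sucnr1 fl/fl replicate 1, and the log2 fold change was 0.47 ± 0.34 (95% interval −0.34 to 1.29). Without Hep-Sucnr1 KO replicate 4 it was 0.12. Pfkfb3, the form of proliferating and stimulated cells and a gene singled out after its values were seen, was 79.6 to 172 times as high as Pfkfb1 per kilobase in the same libraries. Apex2, a gene on the opposite strand, shares exon sequence with Pfkfb1 and had up to 196 counts.

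Pklr (ENSMUSG00000041237, chr3:89136142-89146784, plus strand) encodes the pyruvate kinase of liver and red cells, the last step of glycolysis. Its levels were 245, 114 and 163 CPM in Sucnr1 fl/fl and 138, 176 and 244 CPM in Hep-Sucnr1 KO. Both genotypes thus held a library near the top, Sucnr1 fl/fl replicate 1 and Hep-Sucnr1 KO replicate 5, and the log2 fold change was 0.13 ± 0.32 (95% interval −0.64 to 0.90). Pkm, the pyruvate kinase gene of most other tissues, was read nearly as often: the ratio of Pklr to Pkm counts was 1.38, 1.35 and 0.873 in Sucnr1 fl/fl and 1.01, 1.27 and 1.20 in Hep-Sucnr1 KO. The ratios overlapped between the genotypes (difference of mean log2 ratio −0.02, two-sided exact permutation p = 1.0, also after adjustment over the 4 ratios tested). Per kilobase of exon, Pklr exceeded Pkm by 1.35 to 2.13 times, but with the longest transcript in place of the merged exons the order turned, with mean levels of 62.0 for Pklr and 63.5 CPM per kilobase for Pkm.

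Pklr and Txnip are textbook ChREBP targets, and the stretches before their RefSeq start sites each hold a match to a carbohydrate response element. Such an element is a pair of E-box-like motifs with a spacer between them, and it was searched on both strands as CACGNGNNNNNCNCGTG (inverted motifs) and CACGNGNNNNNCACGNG (repeated motifs), in the 13 windows of 300 bases that RefSeq gives around the starts of the 8 genes. Among all 32851 windows of that table, 15 (0.0457%) held the inverted form and 16 (0.0487%) the repeated form. As Pklr and Txnip were picked as known targets, these shares only describe how rare the letters are and test nothing. The inverted form was found once, before the downstream of the 2 starts of Pklr, the start of the liver transcript, in an intron of the longer transcripts. The repeated form was found once, before Txnip, in a stretch that on the opposite strand is an exon of the noncoding gene Gm15441, which had at most 8 counts. The plain E-box CACGTG, held by 7.15% of all windows, was found in the windows of Khk and of the upstream start of Mlxipl. No match was found in the windows of Slc2a2, Tkfc, Gckr or Pfkfb1, which says only that these letters are not within those windows. The stretches are shown 5′ to 3′ on the plus strand of GRCm38.p6 with the matches in capitals. They are letter matches, and whether ChREBP binds them in these cells was not measured. The Pklr stretch is chr3:89136373-89136571, the Txnip stretch chr3:96557707-96557956 and the Mlxipl stretch chr5:135089640-135089889. The Khk stretch is 30 bases around its E-box, chr5:30921476-30921505, in the first exon of an annotated Khk transcript.
Pklr: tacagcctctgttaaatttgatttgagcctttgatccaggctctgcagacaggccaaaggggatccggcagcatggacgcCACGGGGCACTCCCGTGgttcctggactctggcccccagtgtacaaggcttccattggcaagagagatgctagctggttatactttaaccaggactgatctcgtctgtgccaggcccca
Txnip: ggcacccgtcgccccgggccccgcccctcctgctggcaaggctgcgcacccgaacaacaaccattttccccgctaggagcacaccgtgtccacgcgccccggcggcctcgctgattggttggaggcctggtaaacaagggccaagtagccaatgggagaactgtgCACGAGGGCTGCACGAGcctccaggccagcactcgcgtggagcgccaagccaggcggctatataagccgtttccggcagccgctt
Mlxipl: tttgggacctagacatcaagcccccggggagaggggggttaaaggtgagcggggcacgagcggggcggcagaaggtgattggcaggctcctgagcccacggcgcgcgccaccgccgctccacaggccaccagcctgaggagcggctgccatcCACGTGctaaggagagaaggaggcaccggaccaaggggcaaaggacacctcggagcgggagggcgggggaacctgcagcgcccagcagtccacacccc
Khk: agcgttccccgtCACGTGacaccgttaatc

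Mlxipl (ENSMUSG00000005373, chr5:135089890-135138382, plus strand), the ChREBP gene, was the steadiest of the 8. Its levels were 130, 114 and 116 CPM in Sucnr1 fl/fl and 118, 149 and 128 CPM in Hep-Sucnr1 KO, a range of 1.31-fold over all libraries. Hep-Sucnr1 KO replicate 4 was highest and the genotypes overlapped, with a log2 fold change of 0.13 ± 0.13 (95% interval −0.19 to 0.45). RefSeq gives Mlxipl start sites 17001 bases apart, and the counts pool their transcripts, so the isoforms ChREBP-alpha and ChREBP-beta cannot be told apart here. Mlx, the gene of its dimer partner, was read less often, and the ratio of Mlxipl to Mlx counts lay between 5.60 and 6.79 in the 6 libraries, with overlapping genotypes (exact permutation p = 0.7, adjusted 0.933).

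Txnip (ENSMUSG00000038393, chr3:96557957-96561883, plus strand) encodes the thioredoxin-interacting protein, an arrestin that restrains glucose uptake and binds thioredoxin. It varied most of the 8, with 338, 316 and 148 CPM in Sucnr1 fl/fl and 112, 256 and 107 CPM in Hep-Sucnr1 KO. The libraries fell into a high set (Sucnr1 fl/fl replicates 1 and 2 and Hep-Sucnr1 KO replicate 4) and a low set (the other 3), both with libraries of each genotype. The range was 3.18-fold, wider than that of 97.4% of the 7064 tested genes with a mean of at least 10 CPM, whose median range was 1.36-fold. The log2 fold change was −0.76 ± 0.45 (95% interval −1.84 to 0.31), the most negative of the 8, and it was −1.32 without Hep-Sucnr1 KO replicate 4 and −0.36 without Sucnr1 fl/fl replicate 1. Sucnr1 fl/fl replicates 1 and 2 also carry library indexes of another number series than the other 4 libraries, so the series is partly confounded with genotype. With the index series as a further term the estimate was 0.19 ± 0.53. That estimate rests on Sucnr1 fl/fl replicate 3 as the only control of its series. What the series marks is not given in the sources used here. By the study's methods, all libraries were made with the same kit and index set and sequenced as a single pool.

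**Figure D1:**
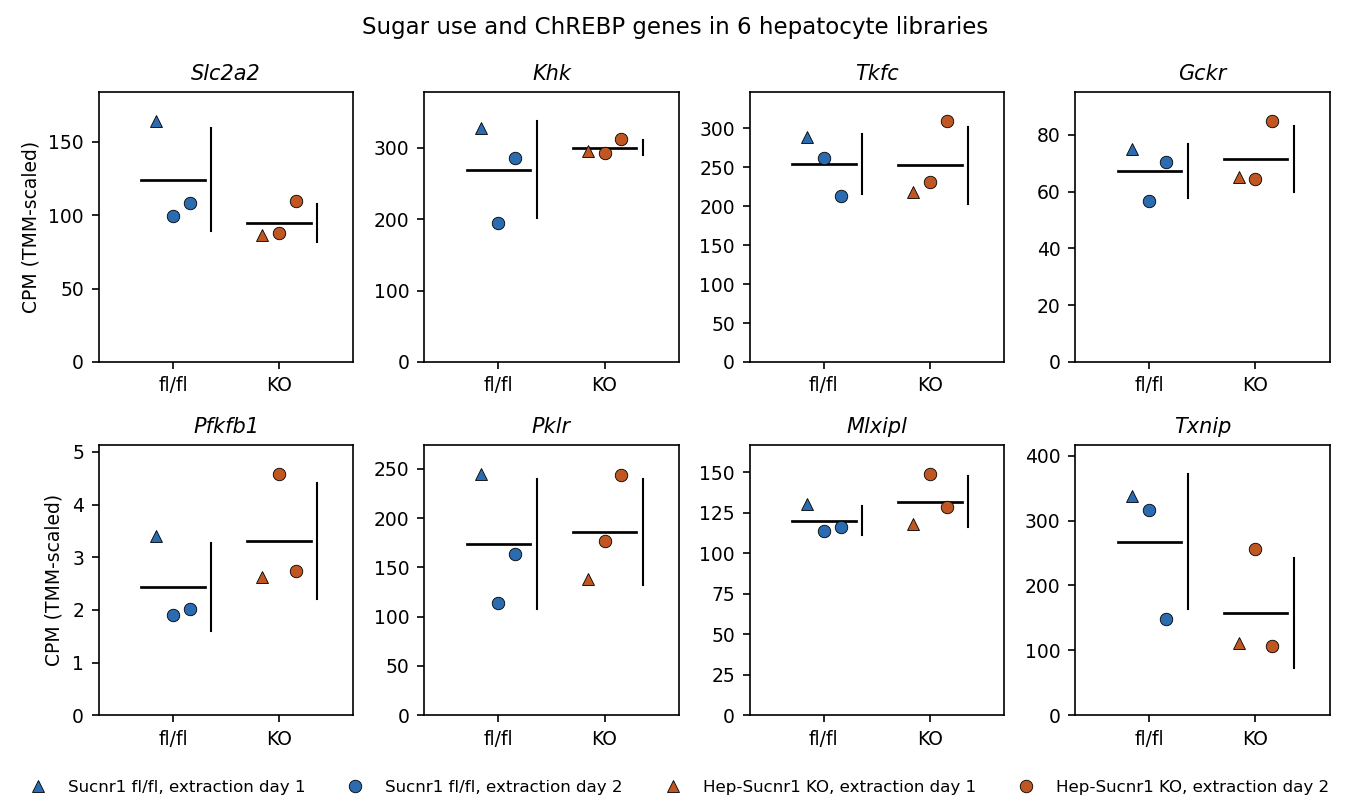
TMM-scaled CPM of each gene (vertical axis, from 0) in the 3 Sucnr1 fl/fl (blue) and 3 Hep-Sucnr1 KO libraries (orange), with triangles for extraction day 1 and circles for day 2. Horizontal lines are genotype means and vertical lines ± 1 SD, and the genotypes overlap in all 8 panels.

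Arrdc4, the arrestin gene most like Txnip and another ChREBP target, did not follow it. Per kilobase of exon the ratio of Txnip to Arrdc4 was 5.34, 5.59 and 2.39 in Sucnr1 fl/fl and 2.30, 2.704 and 1.41 in Hep-Sucnr1 KO. The genes whose log2 CPM ran closest to Txnip over the 6 libraries, among the 7064, were Uhrf2 (Pearson r = 0.99), Atf6 (0.99) and Ankrd11 (0.99). They ranged from 29.3 to 36.5, from 45.0 to 67.0 and from 65.3 to 85.7 CPM. For Mlxipl the closest were Sfxn2 (0.98), Araf (0.98) and Gatb (0.97), which ranged from 18.9 to 24.1, from 30.0 to 36.7 and from 14.0 to 18.8 CPM. With only 6 libraries and 7064 genes compared, correlations of this size are a description of these libraries.

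Levels of different genes can be compared only per length, and on the scale of CPM per kilobase of merged exons the order was Khk (158), Txnip (68.1), Pklr (55.6), Tkfc (55.0), Mlxipl (22.7), Slc2a2 (19.0), Gckr (16.0) and Pfkfb1 (0.716), as means of 6 libraries. Khk was above Txnip in each library, but by as little as 1.07 times in Sucnr1 fl/fl replicate 2, and their ranges overlapped. Txnip, Pklr and Tkfc exchanged places between libraries, as did Mlxipl, Slc2a2 and Gckr. The ranges of neighbours were apart only between Tkfc and Mlxipl and between Gckr and Pfkfb1. With the longest transcript in place of the merged exons, Tkfc rose to 92.0, above Txnip and Pklr.

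**Figure D2:**
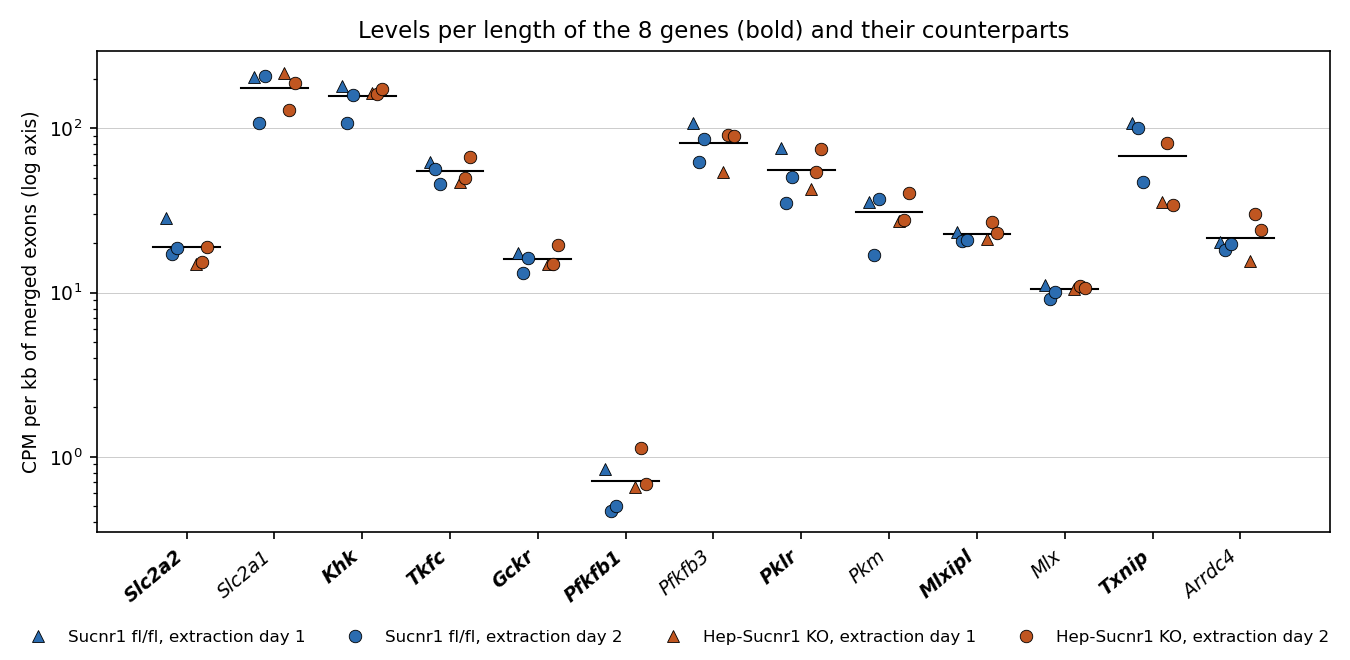
CPM per kilobase of merged exons (log axis) of the 8 genes (bold) and their counterparts, 1 point a library (blue Sucnr1 fl/fl, orange Hep-Sucnr1 KO, triangles day 1, circles day 2) and a line at the mean of 6. Slc2a1, at a mean of 176, lies above Slc2a2, and Pfkfb1 is lowest at 0.716, far below Pfkfb3.

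None of the 8 genes was called between the genotypes. In edgeR's quasi-likelihood test with extraction day as covariate the adjusted p was 0.998 for each, and 0 of all 15105 genes tested (0%) were called. None of the 8 had an unadjusted p below 0.05, as 562 of all genes (3.72%) did, and DESeq2 called none of the 8 and 7 of the 11005 genes to which it gave an adjusted p (0.0636%). The genotypes overlapped for each of the 8, whereas they did not for 10.6% of all genes. The estimates were above 0 for 5 of the 8 and below 0 for 3, with a median of 0.11 beside 0.003 over all genes. The intervals set the limit of what these 3 mice per genotype show: they were within 0.5 on the log2 scale in either direction for Mlxipl, Gckr and Tkfc, and reached −1.84 for Txnip and 1.29 for Pfkfb1. For a single gene the exact permutation test of 3 against 3 cannot give a p below 0.1, and here it gave 0.2 for Txnip, 0.3 for Slc2a2, Pfkfb1 and Mlxipl, and 0.7 or more for the other 4.

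The genotypes were also compared within each extraction day. Day 1 had a single library per genotype, so its differences have no replicate check. All 8 genes were lower there in Hep-Sucnr1 KO replicate 3 than in Sucnr1 fl/fl replicate 1, as 48.8% of all genes tested were, with log2 differences from −0.14 for Mlxipl to −1.60 for Txnip and a median of −0.39. Among the day 2 libraries, 2 per genotype, 6 of the 8 were higher in Hep-Sucnr1 KO (51.0% of all genes), with a median of 0.25. Khk, Pfkfb1, Pklr and Mlxipl did not overlap between the genotypes on day 2, with both Hep-Sucnr1 KO libraries above both Sucnr1 fl/fl libraries, as for 15.0% of all genes. The mean levels on that day were 302 against 240 CPM for Khk, 3.65 against 1.95 for Pfkfb1, 210 against 139 for Pklr and 139 against 115 for Mlxipl. Slc2a2 and Txnip were lower in Hep-Sucnr1 KO on both days, by 0.93 and 1.60 on day 1 and by 0.08 and 0.39 on day 2 on the log2 scale.

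**Figure D3:**
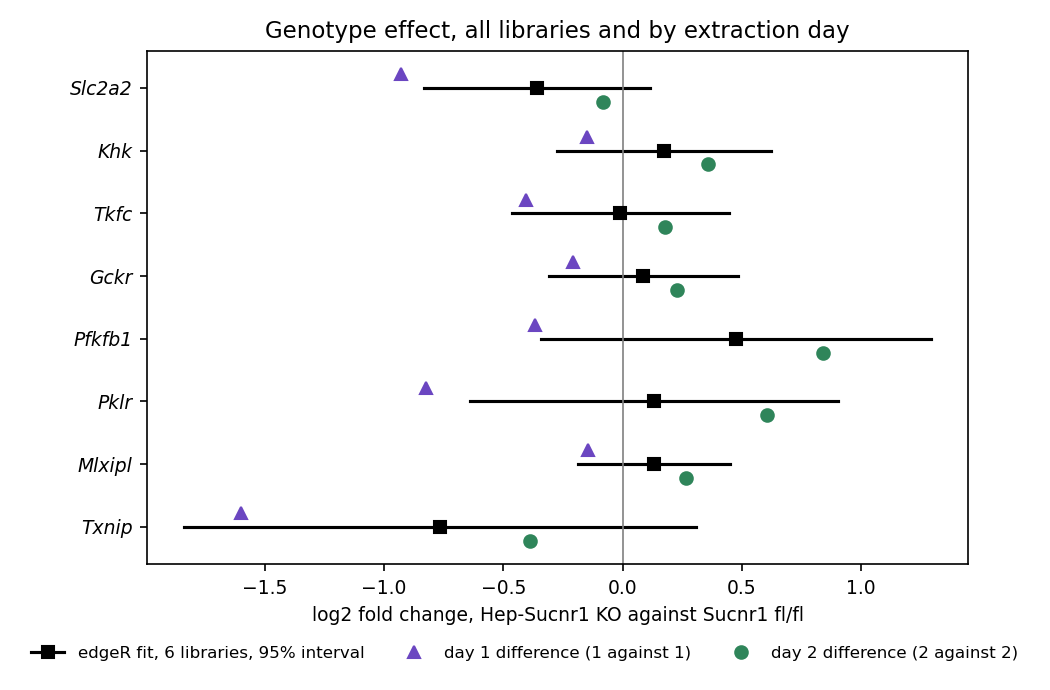
Genotype effect as a log2 fold change (horizontal axis, KO over control) for each gene, with squares and bars for the edgeR estimate from 6 libraries and its 95% interval, triangles for the day 1 and circles for the day 2 difference of mean log2 CPM. Every bar crosses 0, and every triangle lies left of its circle.

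The difference between the days was tested as the interaction of genotype and day. Its estimate was above 0 for all 8 genes (50.4% of all genes), that is, each gene stood higher in Hep-Sucnr1 KO relative to control on day 2 than on day 1. It was 1.43 ± 0.44 for Pklr (unadjusted p = 0.0173 in edgeR's test) and 0.85 ± 0.29 for Slc2a2 (unadjusted p = 0.0277), and for the other 6 the unadjusted p was above 0.05, where 3.69% of all genes were below it. No gene was called for it (adjusted p = 0.9997 for each of the 8 by edgeR), and DESeq2, run after seeing the data, called 4 of 15105 genes (0.0265%), none of them among the 8. All of these estimates share the day 1 libraries, Hep-Sucnr1 KO replicate 3 and Sucnr1 fl/fl replicate 1, of which the latter was the highest of the 6 for Slc2a2, Khk, Pklr and Txnip, so they are not independent of each other. Marker lists of Kupffer cells and macrophages, sinusoidal endothelial cells and stellate cells moved the same way, and none of their markers was at 0 in all libraries. The interaction estimate was above 0 for 10 of 10 Kupffer cell and macrophage genes (4 at an unadjusted p below 0.05), 10 of 10 sinusoidal endothelial genes (7) and 6 of 7 tested stellate cell genes (1). Their summed CPM on day 1 were 36.3, 43.6 and 8.35 in Hep-Sucnr1 KO replicate 3 against 77.0, 118 and 23.2 in Sucnr1 fl/fl replicate 1. Over all days the sums ranged from 52.8 to 163, 65.9 to 118 and 5.21 to 23.2 in Sucnr1 fl/fl, and from 36.3 to 130, 43.6 to 75.7 and 3.87 to 8.71 in Hep-Sucnr1 KO. Among other lists, the interaction estimate was above 0 for 8 of 10 hepatocyte identity and 9 of 10 periportal genes. The same held for 7 of 9 tested cholangiocyte and 6 of 7 tested erythroid genes. Fewer were above 0 among pericentral (5 of 10), neutrophil (2 of 5) and culture genes (3 of 10). The day 1 sum of cholangiocyte genes was higher in Hep-Sucnr1 KO replicate 3 (657 CPM) than in Sucnr1 fl/fl replicate 1 (469 CPM). The part of any of these lists in the interaction of the 8 genes was not tested. On day 1 a day effect on the difference and the difference between 2 mice cannot be told apart.

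The day itself, day 2 against day 1 at equal genotype, moved none of the 8 past the threshold (edgeR adjusted p of 0.914 or more). The estimates lay between −0.26 ± 0.21 for Slc2a2 and 0.03 ± 0.48 for Txnip, and none had an unadjusted p below 0.05, against 7.49% of all genes. By DESeq2, 225 of 13933 genes (1.61%) were called for day and none of the 8. Sucnr1 fl/fl replicate 2 was the lowest library for 5 of the 8, namely Khk, Gckr, Pfkfb1, Pklr and Mlxipl.

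Mlxipl encodes the transcription factor of the group, and its level was compared with that of the other 7 genes over the 6 libraries. Pfkfb1 followed it: the order of the libraries was the same for both genes (Spearman rho = 1.0, exact permutation p = 0.00278, adjusted over 7 relations 0.0194), and Pearson r was 0.96 (exact p = 0.00139, adjusted 0.00972). Without Sucnr1 fl/fl replicate 2 and Hep-Sucnr1 KO replicate 4, the libraries farthest from the median of Mlxipl, r was 0.85, and after subtracting the mean of each extraction day it was 0.997. With library size alone in place of TMM it was 0.91 and the adjusted p rose to 0.0972. How many of all genes reach such an r with Mlxipl was not counted, and Sfxn2, Araf and Gatb ran closer to it. Genotype was not subtracted, and on day 2 both genes were higher in each Hep-Sucnr1 KO library than in each control. Hep-Sucnr1 KO replicate 4, the highest library for both genes, was also the one with the highest sum of pericentral genes, whose part in the relation was not tested.

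Over all 6 libraries, the established targets did not show such a relation with Mlxipl. Pklr had r = 0.54 (rho = 0.77, adjusted exact p = 0.629 and 0.360) and Txnip r = 0.24 (rho = 0.09, adjusted exact p = 0.925 and 0.919). For Khk r was 0.50, for Gckr 0.26, for Tkfc 0.17 and for Slc2a2 0.02, with adjusted exact permutation p of 0.629 or more. Without the same pair of libraries, r was 0.93 for Pklr, 0.96 for Khk and 0.97 for Tkfc, beside 0.85 for Pfkfb1. It was 0.77 for Gckr, 0.72 for Slc2a2 and 0.48 for Txnip, and these values rest on 4 libraries. The contrast of Pklr with Pfkfb1 thus depended on that pair of libraries. Pklr ran closest to Gckr (r = 0.91) and to Khk (r = 0.81), whereas with Txnip its r was −0.09. Both hold a letter match to the response element, but binding and activity of ChREBP were not measured.

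**Figure D4:**
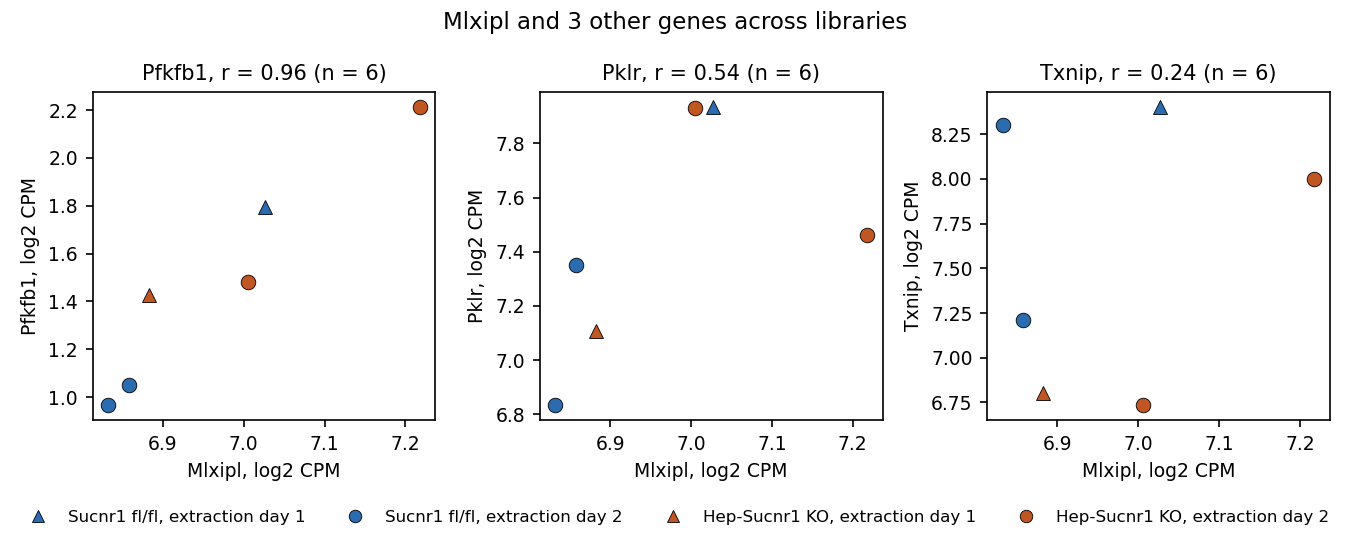
Log2 CPM of Pfkfb1, Pklr and Txnip (vertical axes) against log2 CPM of Mlxipl (horizontal axis), 1 point a library, with blue for Sucnr1 fl/fl, orange for Hep-Sucnr1 KO, triangles for day 1 and circles for day 2. Pfkfb1 rises with Mlxipl (r = 0.96), while Pklr (0.54) and Txnip (0.24) are scattered.

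The other genes of these pathways were followed in 7 lists with 107 genes. No gene of any list was called between the genotypes. Of 25 genes of glycolysis and hexose phosphorylation, 15 had an estimate above 0, with a median log2 fold change of 0.05 and extremes of 0.38 ± 0.22 for Aldoc and −0.54 ± 0.32 for Ldhb, an aldolase and a lactate dehydrogenase gene. As a score, the median deviation of its genes from their mean log2 CPM over the 6 libraries, the list was lowest in Sucnr1 fl/fl replicate 2 (−0.38) and highest in Hep-Sucnr1 KO replicate 5 (0.21). Sugar transport, fructose and polyol metabolism had a median of 0.07 over 13 tested genes and was the only list with genes at an unadjusted p below 0.05, 1 in each direction (1.91% and 1.81% of all genes). The lower one was Slc2a4, the insulin-responsive transporter of muscle and fat, at −1.38 ± 0.53 (edgeR adjusted p = 0.998). It had only 21, 3 and 4 counts in Sucnr1 fl/fl and 6, 2 and 1 in Hep-Sucnr1 KO, so the genotypes overlapped and Sucnr1 fl/fl replicate 1 stood apart. In the list the largest estimate upward was 0.53 ± 0.56 for Slc2a6, which had 15 to 196 counts a library. The higher gene of the pair below 0.05, singled out after its values were seen, was Akr1b3, the aldose reductase of the polyol pathway, at 0.41.

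Of the 20 ChREBP target genes outside the group, 14 had an estimate below 0 and 6 above, with a median of −0.09, and none had an unadjusted p below 0.05. Pnpla3, a lipid droplet gene with only 15 to 68 counts a library, was at 0.66 ± 0.47. Rgs16, a regulator of G protein signalling, was at −0.36 ± 0.34. The list scored highest in Sucnr1 fl/fl replicate 1 (0.36), lowest in Hep-Sucnr1 KO replicate 3 (−0.18), and between −0.15 and 0.12 in the 4 day 2 libraries. Its median turned to 0.13 without Sucnr1 fl/fl replicate 1. Thus the library that was highest for 4 of the 8 genes was also the highest for this list. The interaction estimate of genotype and day was above 0 for every gene of this list except Fgf21 (−0.2466) and Tm6sf2 (−0.06476), beside 50.4% of all genes. It was largest for Fasn (2.003), and for Acly it was 1.442, both singled out after their values were seen. Srebf1, picked the same way from the list of regulators below, was at 1.448. Estimates of this size were thus not limited to the ChREBP target list. As for the 8 genes, these estimates rest on 1 library per genotype on day 1, and their cause was not tested.

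Among the 14 partners of the Mondo family and glucose-sensing regulators, the estimates were split evenly (7 above and 7 below 0, median −0.0016), and the highest was 0.19 ± 0.28 for Hnf4a, a hepatocyte transcription factor. The 12 genes of the pentose phosphate pathway and glucose 6-phosphate had a median of 0.03, with 0.20 ± 0.10 for Taldo1 and −0.22 ± 0.21 for Pgm2. The 14 genes of pyruvate use had a median of 0.02, with 0.10 ± 0.52 for Pdk3 (17 to 64 counts a library) and −0.37 ± 0.29 for Pdp2. In the thioredoxin system, to which the partner of the Txnip protein belongs, all 7 genes had estimates above 0, with a median of 0.10, from 0.01 ± 0.10 for Txn2 to 0.24 ± 0.13 for Prdx1, and none had an unadjusted p below 0.05. Over all genes tested, 50.5% had an estimate above 0.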

How the data were processed

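The authors trimmed the reads (Trim Galore 0.6.7), aligned them to GRCm38 (STAR 2.7.10a) and counted read pairs per gene with featureCounts, using strand, on the Ensembl annotation, as the submitters' processing notes and the methods state. The deposited values are these raw counts, whole and not normalized, in 1 table of 25184 genes with totals of 30504248 to 38770694 a library. At this depth 1 CPM is 30.5 counts in the smallest library, so the spread between mice, more than counting, set the precision for all 8 genes. Counts do not separate transcripts of 1 gene, and how pairs matching several genes were counted is not given in the sources used here.

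Samples were grouped by the labels. A gene was tested (15105 genes) when its base mean in DESeq2 exceeded 5, the filter of the study's methods. The genotype effect was tested with edgeR 4.0.16 (R 4.3.3; TMM, quasi-likelihood, extraction day as covariate, Benjamini-Hochberg over all genes, threshold 0.05), and DESeq2 1.42.0, the study's tool, was an alternative. The interaction of genotype and day was a further fit. SE were derived from the F statistic and 95% intervals from its degrees of freedom. Log2 CPM used a prior count of 2. Exact permutation tests of single values were two-sided. The p-values of the genotype tests rest on the spread between 3 mice per genotype, which edgeR and DESeq2 moderate over all genes. Those of the relations with Mlxipl come from permuted pairings of the 6 libraries, pooled over genotype and day. Those of the interaction rest on 1 library per genotype on day 1. The fits were tested on simulated data.

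Gene positions and exon lengths came from GENCODE M21 (GRCm38), and promoter windows, 250 bases before to 50 after each start, from RefSeq (GRCm38.p6), where all 8 genes matched. Symbols were found for 25096 genes.

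The 8 genes and all lists were chosen with earlier results of these data known. Named were the 8 genes, in each pathway list the gene with the largest log2 fold change in each direction and any gene called, the counterparts Pkm, Slc2a1, Mlx and Arrdc4, Sucnr1, and the 3 genes most correlated with Mlxipl and with Txnip among those with a mean of at least 10 CPM. Alternatives were the other tool, size factors or library size in place of TMM, other filters, a robust fit, no day term, an index series term, each day alone, each library left out, another prior count and the longest transcript. Some genes under this rule are not reported here, and raw reads were not analysed here.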

Additional observations from a re-analysis of the deposited data

How the results depend on the processing

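No paired analysis was possible because the genotypes share only replicate number 3 in the labels, from different extraction days. Extraction day, which links the genotypes, is a term of the fit.

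None of the 8 genes was called for genotype or day under any alternative, so the limits lie in the estimates. With day 1 alone, 1 library per genotype, the genotype log2 fold change turned to −0.21 for Gckr, −0.15 for Khk, −0.14 for Mlxipl, −0.37 for Pfkfb1 and −0.83 for Pklr, and moved to −0.93 for Slc2a2, −0.41 for Tkfc and −1.60 for Txnip. With day 2 alone Tkfc turned to 0.18. With the index series as a further term, Khk turned to −0.026, Tkfc to 0.28 and Txnip to 0.19. In that fit Sucnr1 fl/fl replicate 3 is the only control of its series. Counts of called genes rose from 0 to 7 for genotype, 225 for day and 4 for the interaction with DESeq2, and to 122 for day with no filter on low counts. DESeq2 called Sucnr1 at −2.31. The day estimate of Tkfc, near 0, turned negative with DESeq2 (−0.016), its size factors (−0.016), library size alone (−0.0063), filterByExpr (−0.024) and no filter (−0.018), and that of Mlxipl with filterByExpr (−0.0051). With library size alone, r with Mlxipl was 0.91 for Pfkfb1, no longer past the threshold, −0.14 for Gckr and −0.076 for Slc2a2. On day 2 alone the log2 ratio of Pklr to Pkm differed by 0.19. With the longest transcript, CPM per kilobase was 34.8 for Mlxipl, 1.07 for Pfkfb1 and 92.0 for Tkfc. The cause of these changes was not tested.

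With each library left out, the genotype estimate ranged from −0.076 to 0.23 for Gckr, −0.020 to 0.33 for Khk, −0.16 to 0.60 for Pklr and −0.20 to 0.19 for Tkfc. It kept its sign for Slc2a2 (−0.53 to −0.075), Txnip (−1.32 to −0.36), Pfkfb1 (0.12 to 0.90) and Mlxipl (0.031 to 0.27). The day estimate ranged from −0.28 to 0.20 for Gckr, −0.49 to 0.034 for Khk, −0.22 to 0.23 for Mlxipl, −0.84 to 0.48 for Pfkfb1, −0.86 to 0.61 for Pklr, −0.70 to 0.19 for Slc2a2, −0.32 to 0.31 for Tkfc and −0.58 to 0.70 for Txnip, in each case lowest without Hep-Sucnr1 KO replicate 3 and highest without Sucnr1 fl/fl replicate 1, each of which leaves day 1 with 1 library. Genes called for day ranged from 0 to 29, the latter without Sucnr1 fl/fl replicate 2. Differences of mean log2 ratio ranged from −0.032 to 0.11 for Mlxipl to Mlx and −0.24 to 0.092 for Pklr to Pkm. List medians ranged from −0.046 to 0.24 for sugar transport, 0.10 to 0.19 for the thioredoxin system, −0.18 to 0.13 for ChREBP targets, −0.12 to 0.24 for glycolysis, −0.0088 to 0.10 for the pentose phosphate pathway, −0.057 to 0.052 for pyruvate use and −0.041 to 0.035 for the Mondo partners and regulators.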
